A study of Arabidopsis thaliana with 36 samples.

Results

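The 5 genes described are COR15A (AT2G42540, probe set 263497_at), COR15B (AT2G42530, 263495_at), COR47 (AT1G20440, 259570_at), LTI30 (AT3G50970, 252102_at) and AT4G30650 (253627_at) of Arabidopsis thaliana. They were chosen by name as cold and dehydration genes, with earlier results of these data known, so their ranks and shares below are descriptions. Each had 1 probe set among the 22810 of the Affymetrix ATH1 array. All 5 passed the filter on low signals, which asked for 2 or more arrays reaching 40 and kept 15091 probe sets. Transcripts were measured in shoots and in roots of Col-0 plants (stock N1092) at 0, 0.25, 0.5, 1, 3, 4, 6, 12 and 24 h, with 2 arrays for each of the 18 groups and 36 arrays in all. All plants were controls that received no stress: their boxes were carried out of the chamber, opened and had the raft raised, as for treated plants. They grew on Murashige and Skoog medium at 24 °C and 50% humidity with 16 h of light, and the first plants were taken on day 16, when the lights had been on for 3 h. At 6 h the lights had thus been on for 9 h and at 12 h for 15 h, while 24 h fell at the clock hour of the start. Whether separate plants were used for the 2 arrays of a group is not stated in the labels, so the tests rest on a spread between samples that could be technical. Precision is limited by the small number of arrays.

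When Arabidopsis is chilled, CBF transcription factors bind the promoters of cold-regulated (COR) genes, and the proteins that accumulate help cells to survive freezing and loss of water. Abscisic acid, made in drying plants, induces many of the same genes. The circadian clock also gates the CBF genes, so that some of their targets cycle over the day in warm plants. COR15A and COR15B are adjacent genes for closely related chloroplast stroma proteins that protect membranes during freezing. COR47 and LTI30 are dehydrins, hydrophilic proteins that become ordered at membranes and protect them in dried or frozen cells. AT4G30650 belongs to a family of small hydrophobic membrane proteins named for its response to low temperature and salt.

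The shoot and root labels were borne out by marker genes. The 5 shoot markers named on the array had a median signal of 3870 to 5390 in shoots, against 20.4 to 46.5 in roots. The 3 root markers named on it (of 10 listed) had a median of 42.3 to 89.9 in roots, against 13.4 to 26.2 in shoots. Their summed signal was 3200 to 4150 in roots. In shoots it was 2030 on 0 h replicate 1, 1550 and 1300 at 4 h, and 464 to 975 on the other arrays. That 0 h array is 1 of the 2 behind every shoot comparison with 0 h. The pair of arrays of each group correlated at 0.971 to 0.992 over the kept probe sets. The array control for 25S ribosomal RNA (rRNA) varied with time: in shoots it lay at 947 and 1030 at 0 h, between 2410 and 2660 at 6 h and between 815 and 1100 at 24 h.

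In shoots, COR15A, COR15B and AT4G30650 were highest at 6 h and still high at 12 h, and COR15B and AT4G30650 were back near their 0 h signals at 24 h. COR47 peaked at the same time with a smaller rise. LTI30 stayed near the bottom of the signal range in shoots, and in roots LTI30 and COR47 were highest at 1 h. The change over time in shoots passed the test for 5 of the 5 genes (limma moderated F-test, Benjamini-Hochberg adjusted p from 2.9e-13 for AT4G30650 to 6.6e-05 for COR47), against 62.6% of all probe sets tested. In roots 3 of the 5 passed, against 17.6% of all: LTI30 (adjusted p = 0.0014), AT4G30650 (0.0043) and COR47 (0.018). The COR47 call in roots was not firm. It was lost without either 1 h array, which leaves 1 array at that time, and in a fit of the root arrays alone (adjusted p = 0.082).

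**Figure D1:**
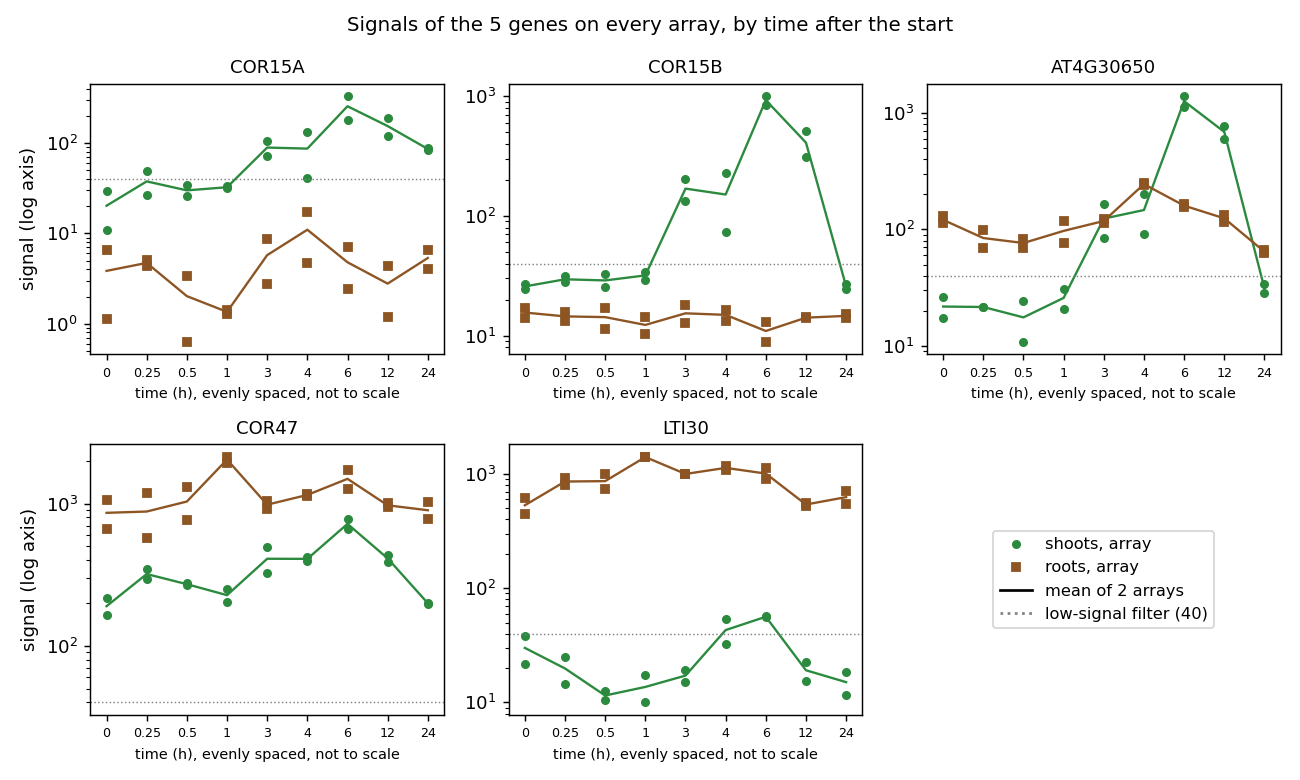
Signal (log axis) of COR15A, COR15B, AT4G30650, COR47 and LTI30 at the 9 times (h, evenly spaced), with 1 point for each array, lines through the mean of the 2 arrays, circles for shoots and squares for roots, and a dotted line at the low-signal filter of 40. COR15A, COR15B and AT4G30650 peak at 6 h in shoots, while LTI30 in roots stays at 446 or above and in shoots at 56.8 or below.

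For the chloroplast protein gene COR15A, the 2 shoot arrays read 11 and 29.5 at 0 h, 49.1 and 26.3 at 0.25 h, 25.9 and 34 at 0.5 h, and 31.8 and 33.2 at 1 h. They read 106 and 72.3 at 3 h, 41.2 and 133 at 4 h, 333 and 179 at 6 h, 190 and 119 at 12 h, and 83 and 89.2 at 24 h. Both arrays of 3, 4, 6, 12 and 24 h lay above both 0 h arrays, and the 4 h pair was the most spread of them in relative terms. The log2 difference from 0 h, here and below of the signal plus 10, was 3.14 ± 0.4 at 6 h (SE, n = 2 arrays a group, limma adjusted p = 1.7e-06), an 8.84-fold rise on that scale, which understates the change of dim genes. It was 1.76 at 3 h (adjusted p = 0.0024), 1.57 at 4 h (0.0069) and 2.48 at 12 h (4.3e-05). All comparisons with 0 h in a tissue share its 2 arrays of 0 h. In bulk samples such as these, fewer cells of a type and less RNA per cell cannot be told apart.

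At 24 h, with the clock back at the starting hour, COR15A still read above its 0 h arrays. Its log2 difference from 0 h was 1.74 ± 0.4 (limma adjusted p = 0.0055), and COR15A was the only gene of the 5 called at that time, when 15.5% of all probe sets were called and 7.77% were higher. From 12 to 24 h its log2 difference was -0.74 and did not pass the test (adjusted p = 0.19). The comparison depended on the dim 0 h arrays: without 0 h replicate 1 it was 1.28 (adjusted p = 0.13), and with signals floored at 1 and nothing added it was 2.26 (0.085). Leaving out the same array also ended the COR15A calls at 3 h (1.31, adjusted p = 0.063) and 4 h (1.11, 0.11), and that at 4 h was lost without 4 h replicate 2 (0.83, 0.21).

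COR15B, which lies next to COR15A in the genome, read 26.9 and 24.6 in shoots at 0 h and between 25.3 and 34.3 on the 6 arrays from 0.25 to 1 h. It then read 205 and 134 at 3 h, 72.8 and 229 at 4 h, 1010 and 849 at 6 h, 509 and 310 at 12 h, and 24.6 and 27 at 24 h. The 6 h and 12 h arrays stood above the arrays of all other times without overlap, and the 24 h arrays overlapped those of 0 h. Against 0 h the log2 difference was 2.3 ± 0.3 at 3 h (limma adjusted p = 6.2e-06), 1.98 at 4 h (4e-05), 4.71 at 6 h (2.4e-11) and 3.51 at 12 h (4.4e-09), and 0 at 24 h (adjusted p = 1). The 6 h difference ranked 7 from the highest of the 15091 probe sets, and that of COR15A 37.

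AT4G30650, the gene of the small membrane protein, read 17.3 and 26.3 in shoots at 0 h, and the 6 arrays from 0.25 to 1 h lay between 10.9 and 30.8. It read 164 and 83.8 at 3 h, 91.4 and 202 at 4 h, 1400 and 1120 at 6 h, 772 and 604 at 12 h, and 28.5 and 33.9 at 24 h. Arrays of 6 h and of 12 h overlapped neither each other nor those of any other time. The log2 difference from 0 h was 2.02 ± 0.3 at 3 h (limma adjusted p = 2.7e-05), 2.22 at 4 h (8.1e-06), 5.33 at 6 h (2.3e-12, 40.2-fold) and 4.46 at 12 h (7.7e-11). At 6 h this ranked 4 from the highest of all probe sets. At 24 h the difference was 0.39 and did not pass the test (adjusted p = 0.42).

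Each time was also set against the time before it, a comparison added after the time courses had been seen. From 1 to 3 h in shoots, 4 of the 5 were called, all higher, against 17.2% of all probe sets: COR15B by 2.07 (limma adjusted p = 3.6e-05), AT4G30650 by 1.85 (0.00012), COR15A by 1.2 (0.041) and COR47 by 0.8 (0.047). The COR15A step was lost in 8 and the COR47 step in 30 of 48 alternatives, COR15A without any 1 of the 4 arrays concerned (adjusted p from 0.058 to 0.25) and COR47 without 3 h replicate 2 (0.5, 0.37). From 4 to 6 h in shoots, COR15A rose by 1.57 on the log2 scale (limma adjusted p = 0.017), COR15B by 2.73 (1.7e-06) and AT4G30650 by 3.11 (2.5e-07), which made 3 of 5 called, against 6.87% of all probe sets. The COR15A step was lost without 4 h replicate 1 (0.84, adjusted p = 0.33) and without 6 h replicate 1 (1.14, 0.23). From 6 to 12 h, 4 of the 5 were called, all lower, against 19.2% of all, among them LTI30, which fell by 1.2 (0.00082). Of these 4 steps, that of LTI30 alone passed under all alternatives run. From 12 to 24 h, COR15B fell by 3.51 (4.4e-09), AT4G30650 fell by 4.07 (3e-10) and COR47 fell by 1.01 (0.008), when 25.8% of all probe sets were called. The COR47 step was lost without 12 h replicate 2 (-0.94, 0.062). At 4 h, replicate 1 read lower than replicate 2 for all 5 genes, and at 3 h replicate 1 read higher for all but COR47. Between 3 and 4 h, when 1.59% of all probe sets were called, LTI30 was 1 of 5 called, at 0.94 (adjusted p = 0.044). That call was lost in 18 of 48 alternatives, among them without 4 h replicate 2 (0.64, 0.3). COR15A (-0.19, adjusted p = 0.87) and COR15B (-0.32, adjusted p = 0.65) did not pass at that step.

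COR47, the dehydrin gene, was readily detected in both tissues. In shoots it read 164 and 215 at 0 h, 345 and 293 at 0.25 h, 274 and 268 at 0.5 h, 203 and 251 at 1 h, 324 and 494 at 3 h, 397 and 420 at 4 h, 775 and 664 at 6 h, 391 and 432 at 12 h, and 200 and 198 at 24 h. The 6 h arrays were above all other shoot arrays, those of 3, 4 and 12 h overlapped one another, and those of 24 h lay within the 0 h pair. Against 0 h the log2 difference was 1.05 ± 0.27 at 3 h (limma adjusted p = 0.007), 1.08 at 4 h (0.0067), 1.88 at 6 h (1.1e-05), then 1.09 at 12 h (0.0036). Under all alternatives run, the rise at 6 h passed. Without 0 h replicate 1 the calls of COR47 at 3 h (0.87, adjusted p = 0.086), 4 h (0.89, 0.072) and 12 h (0.9, 0.052) were lost, and that at 3 h was lost without 3 h replicate 2 (0.75, 0.11).

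In roots COR47 had its highest signals at 1 h. The root arrays read 663 and 1060 at 0 h, 575 and 1180 at 0.25 h, 768 and 1300 at 0.5 h, 2140 and 1940 at 1 h, 922 and 1040 at 3 h, 1130 and 1170 at 4 h, 1270 and 1710 at 6 h, 1000 and 940 at 12 h, and 775 and 1020 at 24 h. Both 1 h arrays stood above all other root arrays, whose pairs overlapped widely. The log2 difference between 1 and 0 h was 1.27 ± 0.27 (limma adjusted p = 0.0069), and COR47 fell by 1.05 from 1 to 3 h (0.019), a step that 9.05% of all probe sets passed and that was lost without any 1 of the 4 arrays concerned (adjusted p from 0.078 to 0.14). The rise did not pass without 0 h replicate 1 (0.94, adjusted p = 0.12) or without 1 h replicate 1 (1.2, 0.079). The 25S rRNA control in roots was 1210 and 1360 at 0 h and 2310 and 2350 at 1 h, and with it as a covariate the difference was 1.22 (adjusted p = 0.18).

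LTI30, the other dehydrin gene, had high signals in roots and low ones in shoots. In roots it read 446 and 616 at 0 h, 801 and 914 at 0.25 h, 738 and 990 at 0.5 h, 1410 and 1390 at 1 h, 995 and 1000 at 3 h, 1070 and 1180 at 4 h, 894 and 1120 at 6 h, 524 and 555 at 12 h, and 542 and 710 at 24 h. The 1 h arrays stood apart at the top, the 6 h pair overlapped those of 3 and 4 h below them, and those of 12 h lay within the 0 h pair. Against 0 h the log2 difference was 1.4 ± 0.23 at 1 h (limma adjusted p = 0.00092), and it passed under all alternatives run, with an adjusted p of at most 0.034. At 3 h it was 0.92 (0.019) and at 4 h 1.09 (0.0089). By 6 h it was 0.92 (0.022), and by 12 h it was 0.04 and did not pass (0.96). At 1 h, 2 of the 5 genes were higher in roots, LTI30 and COR47, with ranks of 54 and 67 from the highest, against 3.87% of all probe sets higher. Of the root calls at 1 h, 49% were higher, and 61.7% with each array centred on its median.

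The later LTI30 calls in roots were less firm. LTI30 was the only one of the 5 genes called there at 3, 4 and 6 h, against 4.34%, 2.47% and 3% of all probe sets higher. Without 0 h replicate 1 they were 0.69 (adjusted p = 0.15), 0.86 (0.08) and 0.69 (0.19). They were also lost at 3 h without 3 h replicate 1 (adjusted p = 0.1) or 3 h replicate 2 (0.11), at 4 h without 4 h replicate 2 (0.1) and at 6 h without 6 h replicate 2 (0.16). With the 25S rRNA covariate they were 1.12 (adjusted p = 0.12), 1.25 (0.074) and 1.04 (0.055), and with signals floored at 1 and nothing added 0.93 (0.09), 1.1 (0.057) and 0.93 (0.11). The 25S rRNA control lay between 1670 and 2510 on the root arrays of these times. From 6 to 12 h LTI30 in roots was 1 of 5 called, at -0.88 (0.045), against 2.8% of all, and that call was lost in 14 of 48 alternatives, among them without 6 h replicate 2 (-0.72, 0.33).

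**Figure D2:**
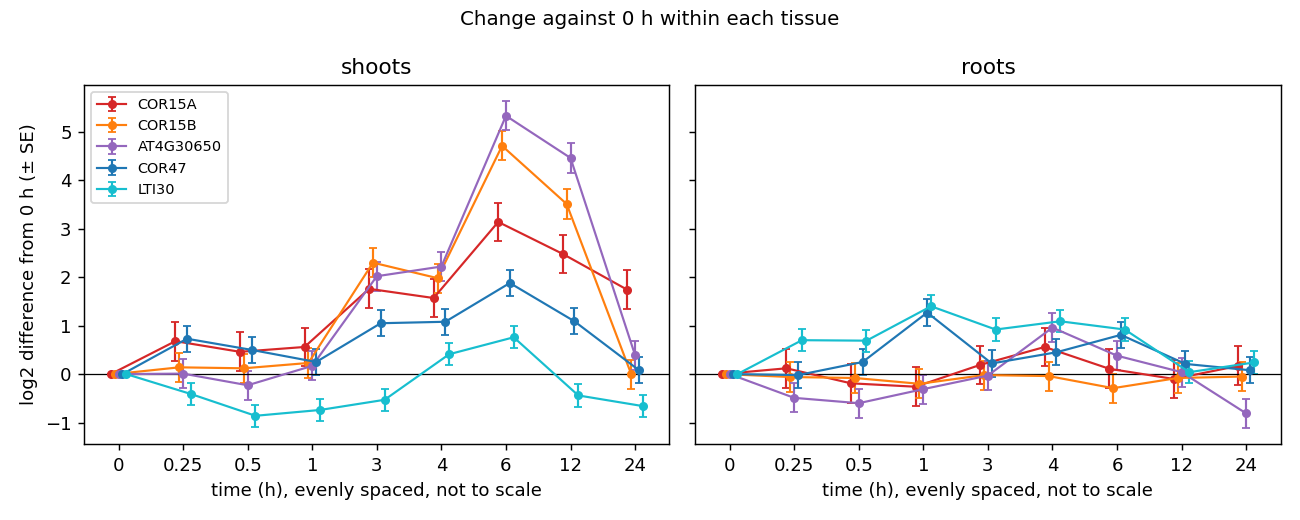
Log2 difference from 0 h of the 5 genes at each time (h, evenly spaced) in shoots (left) and roots (right), with bars for the SE of the limma fit. In shoots AT4G30650, COR15B and COR15A reach 5.33, 4.71 and 3.14 at 6 h, and in roots LTI30 and COR47 reach 1.4 and 1.27 at 1 h.

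In shoots LTI30 read 38.5 and 21.5 at 0 h, 25.1 and 14.5 at 0.25 h, 10.5 and 12.5 at 0.5 h, 17.3 and 10 at 1 h, 19.2 and 15.1 at 3 h, 32.2 and 53.8 at 4 h, 56.8 and 55.6 at 6 h, 22.8 and 15.5 at 12 h, and 11.6 and 18.5 at 24 h. Only 3 of the 18 shoot arrays reached the filter's 40, both of 6 h and 1 of 4 h. The 6 h arrays were above all others, and those of 0.5 and 1 h lay below the 0 h pair. Against 0 h the log2 difference was -0.86 ± 0.23 at 0.5 h (limma adjusted p = 0.031), -0.74 at 1 h (0.041) and 0.76 at 6 h (0.015). At 0.5 and at 1 h LTI30 was 1 of 5 called, when 5.49% and 12.2% of all probe sets were called.

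Shoot arrays also carried some signal of genes that are abundant in roots. By the mean of the 2 arrays, this signal was highest at 0 h, then 4 h, then 6 h. The LTI30 mean in shoots was highest at 6 h, then 4 h, then 0 h. For the 93 probe sets whose root mean reached 512 and whose shoot mean was at least 16-fold lower, the 5 genes left out, the median shoot signal was 5.43% and 2.31% of the root mean on the 0 h arrays, 2.48% and 3.34% at 4 h, and 1.02% to 1.99% at the other times. These probe sets are low in shoots by construction. The LTI30 root signal times that share was 20.6 at 0 h, beside a mean of 30 in shoots, 11.6 beside 11.5 at 0.5 h, 19.1 beside 13.7 at 1 h and 32.8 beside 43 at 4 h. At 6 h it was 17.2 beside 56.2, and at 12 h 6.75 beside 19.1. The part of this share in the LTI30 differences was not tested. For COR47 the same product was 33.3 beside a shoot mean of 190 at 0 h and 27.7 beside 227 at 1 h. At 4 h it was 33.5 beside 408, and at 6 h 25.5 beside 719.

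The small LTI30 calls in shoots were not firm. Leaving out an array leaves 1 in its group, so a call can be lost while the difference hardly moves. Without 0 h replicate 1 the difference at 0.5 h was -0.55 (adjusted p = 0.38) and that at 1 h was -0.43 (0.36). The first also lost its call without either 0.5 h array, though it stayed near its -0.86, at -0.8 without replicate 1 and -0.93 without replicate 2. The second lost its call without 1 h replicate 2, at -0.52. With 50 added to the signal in place of 10 they were -0.37 (0.16) and -0.32 (0.18). The rise at 6 h, 0.76 with all arrays, lost its call without 0 h replicate 2, at 0.45. Its call was also lost without 6 h replicate 1 (0.75) or 6 h replicate 2 (0.77), where the difference hardly moved. With the 25S rRNA covariate the LTI30 differences were -0.75 at 0.5 h (0.13), -0.56 at 1 h (0.39) and 1.05 at 6 h (0.12), and none passed.

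**Figure D3:**
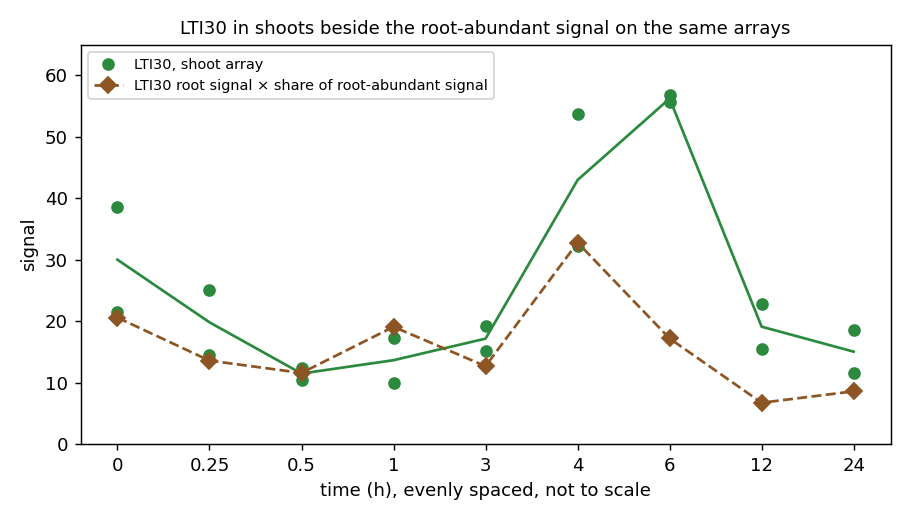
LTI30 signal on each shoot array (circles, line through the mean of 2) at the 9 times (h, evenly spaced), with the LTI30 root signal times the share of root-abundant signal on the shoot arrays (diamonds, dashed). The product is 20.6 at 0 h, 32.8 at 4 h and 17.2 at 6 h, beside shoot means of 30, 43 and 56.2.

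In shoots 4 of the 5 genes were higher at 3 h than at 0 h, against 13.8% of all probe sets, and 4 of 5 at 4 h, against 12%. Of all calls, 55.6% at 3 h and 55.9% at 4 h were higher, and 42.5% and 45.1% with each array centred on its median. At 6 h all 5 were higher, against 18.7% of all, and at 12 h 4 were, against 18.5%. The median log2 difference of the 5 was 3.14 at 6 h and 2.48 at 12 h, where all probe sets had a median of 0.05 and 0.03. At 0.25 h none of the 5 was called in shoots, when 14.4% of all probe sets were. COR47 was the nearest, at a log2 difference of 0.73 (limma adjusted p = 0.079). It passed with the shoot arrays fitted alone (0.02) and with the replicate number as a fixed block (0.041). The 25S rRNA control moved with these times, from 1030 and 947 at 0 h to 2540 and 2070 at 3 h and 2400 and 2450 at 4 h. With 2 arrays a group its part and that of time cannot be told apart. It was entered only as a covariate, and neither a call kept nor a call lost in that fit decides its part. With the covariate, COR15A, COR15B, AT4G30650 and COR47 at 6 h still passed, and LTI30 did not (1.05, adjusted p = 0.12). The calls at 3 h of COR15A (1.76, adjusted p = 0.13), COR47 (0.98, 0.24) and AT4G30650 (1.6, 0.056) were lost, as were those at 4 h of COR15A (1.56, 0.25), COR15B (1.83, 0.05), COR47 (1, 0.29) and AT4G30650 (1.78, 0.05).

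The 2 chloroplast protein genes had low signals in roots. COR15A read 0.634 to 17.2 and COR15B 8.91 to 17.9 on the 18 root arrays, all under the filter's 40, so no order is read from those values. Neither passed the test of change over time in roots (limma adjusted p = 0.76 and 1). AT4G30650 was measured in roots at every time, with 112 and 129 at 0 h, 99.1 and 69.7 at 0.25 h, 83.6 and 69.3 at 0.5 h, 76.6 and 118 at 1 h, 123 and 113 at 3 h, 248 and 241 at 4 h, 166 and 154 at 6 h, 134 and 115 at 12 h, and 62.4 and 66.4 at 24 h. Its 4 h and 6 h arrays stood above all others and its 24 h arrays below all others. No single time passed against 0 h in the main fit, the nearest being 4 h at a log2 difference of 0.96 (limma adjusted p = 0.063). The 4 h difference passed in 7 of 48 alternatives, among them the root arrays fitted alone (0.96, 0.012) and 50 added to the signal (0.79, 0.023). That at 24 h passed in 1 of 48, the root arrays alone (-0.81, 0.045).

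Over all times, shoots were higher than roots for COR15A and COR15B and lower for COR47, LTI30 and AT4G30650. All 5 differences passed the limma test, as 92.2% of all probe sets did. Of all probe sets 31.6% were called higher in shoots and 60.6% lower, and their median log2 difference was -0.33, or -0.18 with each array centred on its median. The ranges of the 18 shoot and the 18 root arrays did not overlap for COR15B and LTI30, as for 46.7% of all probe sets. The mean over all times hides a change of order for AT4G30650. Its log2 difference, shoots minus roots, was -2.05 ± 0.3 at 0 h (limma adjusted p = 1.7e-06), 0 at 3 h with overlapping arrays (0.99), and -0.8 at 4 h (0.019). The 4 h value was -0.26 (0.46) without shoot replicate 1 and was lost without either root array of that time (0.068 and 0.056). The difference turned to 2.89 at 6 h (8.5e-09) and 2.37 at 12 h (1.9e-07), which passed under all alternatives run, and back to -0.86 at 24 h (0.012). The 24 h call was lost with the 25S rRNA covariate (-0.51, 0.33), with quantile normalization over all arrays (-0.59, 0.073), without shoot replicate 1 (-0.76, 0.071) and without root replicate 2 (-0.82, 0.054). Both shoot arrays thus lay above both root arrays at 6 and 12 h, and both below them at 0, 0.25, 0.5, 1, 4 and 24 h. Its difference over all times was -0.36 (0.0015), close to the median of -0.33 of all probe sets, and it ranked 7821 from the highest of 15091. With 50 added to the signal it was -0.05 (0.51). No lean of AT4G30650 to either tissue over all times is read from this.

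At single times the difference passed the test for all 5 genes, apart from COR15B at 0 and 24 h and AT4G30650 at 3 h. The share of all probe sets called was 77.5%, 76.9%, 76.6% and 72.8% at 0, 0.25, 0.5 and 1 h, 76.2%, 75.9% and 74.7% at 3, 4 and 6 h, and 77.6% and 78.4% at 12 and 24 h. COR47 and LTI30 were lower in shoots at each time. For COR15A and COR15B all root arrays lay under 40, as did their shoot arrays from 0 to 1 h with 1 exception and those of COR15B at 24 h, so no order between the tissues is read at those times, whatever the test. At 6 h their shoot arrays (333 and 179, and 1010 and 849) stood far above the root arrays (7.16 and 2.43, and 13 and 8.91), with limma adjusted p-values of 3.6e-09 and 1.2e-13. The size of that difference depends on the constant added, from 2.44 to 5.87 for COR15A and from 4 to 6.43 for COR15B over the alternatives that kept all arrays. COR47 was lower in shoots by a log2 difference of -3.12 ± 0.27 at 1 h (6.7e-10), when it was highest in roots, and of -1.03 at 6 h (0.0018), when it was highest in shoots. LTI30 ran from -5.92 ± 0.23 at 1 h (3.1e-16) to -3.77 at 0 h (1.4e-12).

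**Figure D4:**
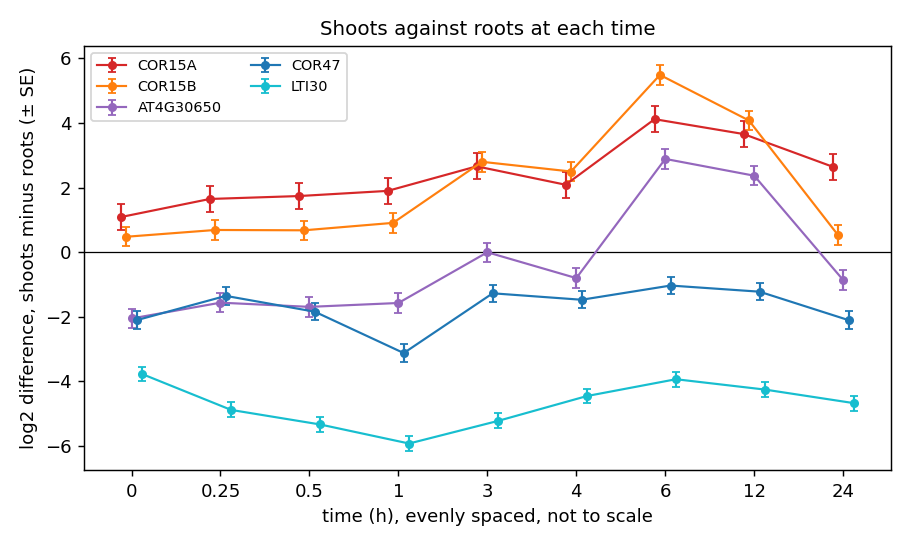
Log2 difference, shoots minus roots, of the 5 genes at each time (h, evenly spaced), with bars for the SE of the limma fit. AT4G30650 crosses the zero line, with -2.05 at 0 h and 2.89 at 6 h, while COR47 and LTI30 stay below it, and the root signals of COR15A and COR15B lie under the filter of 40.

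The time courses of the tissues differed for all 5 genes (limma moderated F-test, adjusted p = 0.0024 for COR15A, 7.9e-09 for COR15B, 0.0035 for COR47, 0.00027 for LTI30 and 7.5e-09 for AT4G30650), as for 40.9% of all probe sets. That of COR15A did not pass with signals floored at 1 and nothing added (0.17). The change from 0 to 6 h was larger in shoots than in roots by 3.04 ± 0.57 for COR15A (adjusted p = 0.00047), 5 ± 0.42 for COR15B (1.1e-08) and 4.95 ± 0.42 for AT4G30650 (1.1e-08), 3 of 5 called against 20.9% of all. For COR15A and COR15B the root change is of signals under 40, so these values rest on the change in shoots. With signals floored at 1 and nothing added, the COR15A difference did not pass (3.14, adjusted p = 0.075). For COR47 this difference was 1.07 ± 0.39 and did not pass (0.054), though it passed in 12 of 47 alternatives, among them the replicate number as a fixed block (0.025). For LTI30 the change from 0 to 1 h in shoots minus that in roots was -2.14 ± 0.33 (adjusted p = 0.00025), where all 4 shoot arrays lay under 40 and the change in roots alone was 1.4, 1 of 5 called against 11.1% of all. LTI30 was also the 1 gene of 5 called in this way at 0.5 h, against 1.21% of all, a call lost without shoot 0 h replicate 1 (-1.25, 0.11), root 0 h replicate 1 (-1.33, 0.071), root 0.5 h replicate 2 (-1.35, 0.076) or either shoot 0.5 h array (0.051 and 0.07), and COR15B that at 4 h, against 9.97%. At 3 and 12 h, 3 of 5 were called, against 16.2% and 20.7%.

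Other genes of the same pathways were read from 6 lists of 87 genes, of which the probe table named 13 on the array and 9 were kept. Of the membrane protein family, 1 of 2 kept genes rose in shoots at 6 h, when 18.7% of all probe sets were higher: AT4G30660, next to AT4G30650 in the genome, read 28.4 and 41.2 at 0 h and 1020 and 933 at 6 h, a log2 difference of 4.47 ± 0.29 (limma adjusted p = 3.7e-11). AT2G24040 had a difference of -0.11 (0.53). Both kept cold-regulated targets rose in shoots at 6 h, against the same 18.7%, COR27 by 3.41 ± 0.27 (1.1e-09) and COR28 by 3.64 ± 0.22 (1.1e-11), genes known to act on the circadian clock. They rose in roots at 6 h as well, by 2.08 (5e-05) and 3.07 (8.6e-09), against 3% of all probe sets higher, where COR15A and COR15B stayed under the filter.

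Of 3 kept dehydrins and related genes, the dehydrin gene HIRD11 rose in shoots at 6 h by 1.28 ± 0.15 (limma adjusted p = 4e-07), while AT4G38410 had a difference of -0.05 (0.84) and DI21 of 0.27 (0.23). Of all probe sets, 18.7% were called higher in shoots at 6 h than at 0 h, and 15.9% lower. The kept regulator, STZ, a zinc finger repressor induced by stress, read 233 and 160 in shoots at 0 h and 16.7 and 22.6 at 6 h, a log2 difference of -2.79 ± 0.53 (0.00024). The kept clock gene GI, which promotes flowering in long days, rose by 2.76 ± 0.13 at 6 h (9.9e-14), with 448 and 446 at 6 h against 59.3 and 56 at 0 h. GI was back at 57.8 and 60.9 at 12 h, a log2 difference from 0 h of 0.04 (0.86). The probe table named no gene of the abscisic acid and drought list and none of the CBF genes. ERD10 and XERO1, the neighbours of COR47 and LTI30, were not analysed here, and with no probe sequence at hand, whether a probe set also reads a related transcript was not tested.

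**Figure D5:**
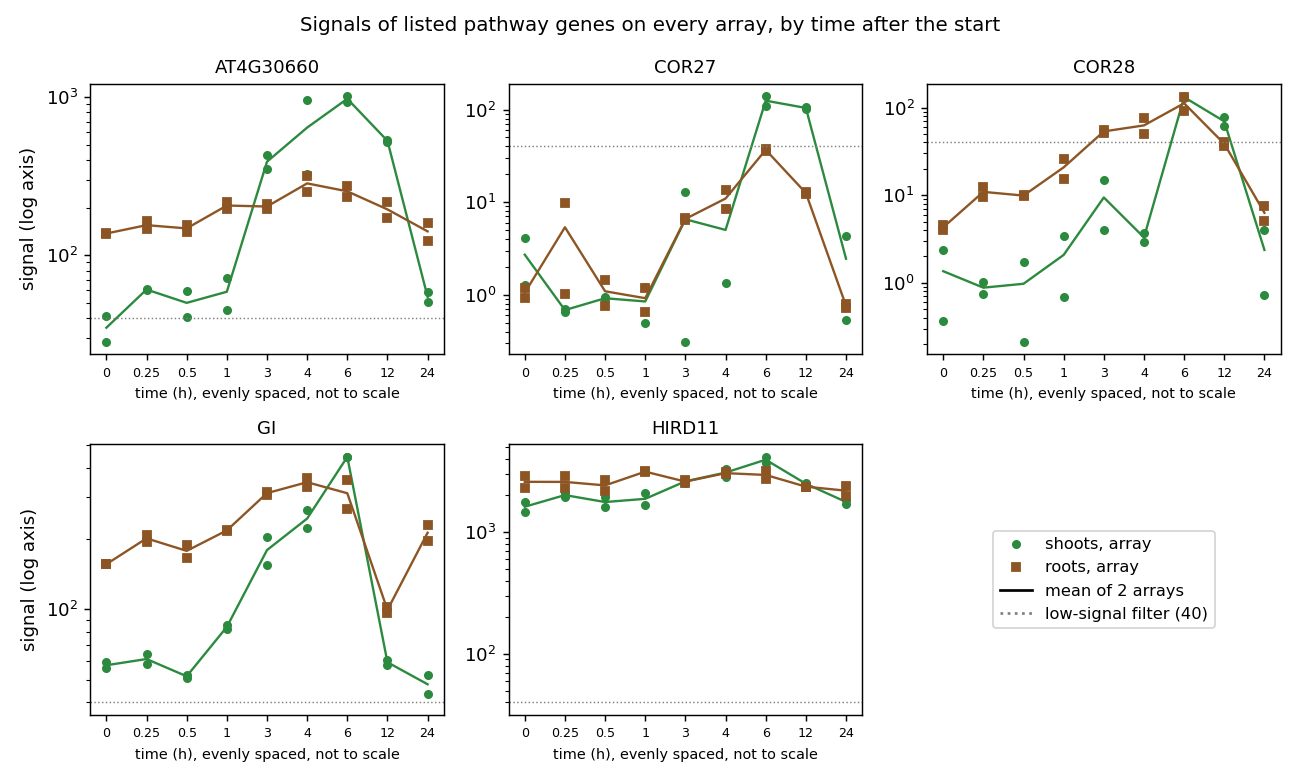
Signal (log axis) of AT4G30660, COR27, COR28, GI and HIRD11 at the 9 times (h, evenly spaced), with 1 point for each array, lines through the mean of the 2 arrays, circles for shoots and squares for roots, and a dotted line at the filter of 40. AT4G30660 in shoots reaches 1020 and 933 at 6 h, and GI falls back to 57.8 and 60.9 at 12 h.

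Likeness of time course was described by Pearson's r over the 9 group means of a tissue, across 8112 kept probe sets with 1 gene, all means sharing the same arrays. Within the 5 in shoots, COR15B and AT4G30650 were most alike (r = 0.988), COR15A and COR15B had 0.893, and LTI30 had 0.479 to 0.636 with the others. In roots COR47 and LTI30 had 0.746. The nearest probe sets to AT4G30650 in shoots were AT4G16146 (0.991), PWD, a kinase of starch breakdown (0.99), and AT4G33490 (0.989), and AT4G16146 was also among its 3 nearest in roots (0.921). Nearest to COR15B were AT4G16155 (0.988), AT1G11210 (0.986) and AT5G39410 (0.985). Nearest to COR15A were AT3G13160 (0.962), AT1G48430 (0.955) and TMT2, a vacuolar sugar transporter (0.953).

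For COR47 the nearest in shoots were AT1G75140 (0.983), AT4G24750 (0.979) and AT3G16740 (0.974), and in roots AT1G10090 (0.948), AT5G58750 (0.937) and AT1G22330 (0.937). For LTI30 in roots they were AT5G01750 (0.964), AT5G39590 (0.942) and AT2G01540 (0.936), whose group means spanned 1.03, 0.29 and 0.38 on the log2 scale. For LTI30 in shoots they were AT1G24320 (0.953), AT5G05320 (0.936) and AT1G30870 (0.931), with spans of 0.39, 0.48 and 0.51. Spans were also narrow for AT4G16155 (0.53), AT1G48430 (0.63), AT4G24750 (0.63) and AT3G13160 (0.65). The root list of AT4G30650 was completed by AT5G63990 (0.945) and AT4G10550 (0.928).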

How the data were processed

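The file holds 1 deposited intensity for every probe set (22810) and array (36), from MAS5 per the submitters' processing notes. Which MAS5 version was run is not given here by any source used. The 2% trimmed mean of each array lay between 100.007 and 100.01, so the values had been scaled before deposit and were left as they were. No detection calls were used. The 64 control probe sets were set aside. Signals plus 10 were taken to log2, 15091 probe sets that reached 40 on 2 or more arrays were kept, and limma 3.58.1 (R 4.3.3) fitted 18 group means, with 18 residual and 4.06 prior degrees of freedom. P-values are 2-sided and adjusted by Benjamini-Hochberg over all kept probe sets, with a threshold of 0.05. Gene names came from the platform's probe table, which gave 13513 probe sets 1 gene, 503 several and 8794 none, and neighbours from the RefSeq gene table of assembly TAIR10.1. The procedure was tested on simulated data. The 5 genes, the lists and the tests were chosen with earlier results of these data known. Genes beside the 5 were named by a rule: up to 4 kept genes of each list with the smallest p over time in shoots, and the 3 nearest in time course to each of the 5 in a tissue where the log2 range of its means reached 1. The alternatives were other added constants, filters and scalings, a robust prior with a trend, each tissue fitted alone, replicate blocks, the 25S rRNA control as a covariate and leaving out each array. The replicate numbers did not pair the tissues: after removal of group means, shoot and root arrays of the same time and number correlated at -0.115 to 0.0502.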

Additional observations from a re-analysis of the deposited data

Results flagged for a closer look

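The time courses of shoots and roots differed by a test of the difference itself for all 5 genes, with limma adjusted p-values of 0.0024 for COR15A, 7.9e-09 for COR15B, 0.0035 for COR47, 0.00027 for LTI30 and 7.5e-09 for AT4G30650. Of all probe sets, 40.9% passed this test. Single times at which the change against 0 h in shoots minus that in roots passed the test were as follows, as log2 differences. COR15A had 3.04 at 6 h and 2.58 at 12 h. COR15B had 2.31 and 2.02 at 3 and 4 h, then 5 and 3.59 at 6 and 12 h. AT4G30650 had 2.05 at 3 h, 4.95 at 6 h and 4.42 at 12 h. LTI30 had -1.56 at 0.5 h and -2.14 at 1 h, then -1.44 by 3 h. The root signals of COR15A and COR15B and the shoot signals of LTI30 up to 3 h lay under the filter of 40, so the sizes depend on the constant added. With signals floored at 1 and nothing added, COR15A passed neither at 6 h (3.14, adjusted p = 0.075) nor at 12 h (3.31, 0.061). The LTI30 value at 0.5 h was lost in 5 of the fits that left out 1 array (adjusted p from 0.051 to 0.11). For COR47 no single time passed, though 6 h (1.07, adjusted p = 0.054) passed in 12 of 47 alternatives.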

How the results depend on the processing

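Of 255 values and tests of the 5 genes, recomputed under up to 48 alternatives each (12113 recomputations), none changed sign while called, 209 lost a call and 80 gained one. With the 25S rRNA covariate the 80 comparisons with 0 h gave 11 calls, against 25. Leaving out 1 array at a time gave 17 to 27 of these calls, 11 to 17 (against 12) for the differences between tissues, 41 to 44 (against 42) for shoots against roots at each time, 2 to 3 genes for the change over time in roots and 5 for the other tests. With the replicate number as a fixed block the calls against 0 h were 27 and as a random block 25, and with the block in either form the counts of genes for the change over time and for the difference of the courses stayed at 5, 3 and 5. Over all probe sets, the counts called against 0 h in shoots fell with the 25S rRNA covariate from 3746 to 1083 at 3 h, 3249 to 842 at 4 h and 5217 to 1950 at 6 h, and in roots from 1193 to 67 at 1 h. As the control moved with time, neither these counts nor the calls of the 5 genes lost with it separate its part from that of time. Signals under about 40, which include COR15A and COR15B in roots and most of LTI30 in shoots, carry no detection call here, so their differences depend on the constant added.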
